A study of Homo sapiens with 12 samples.

Results

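miR-101 and miR-26 are microRNA families that are both known to target EZH2. The counts of 3 mature miRNAs, hsa-miR-101-3p, hsa-miR-26a-5p and hsa-miR-26b-5p, were taken out of the 1204 miRNAs in the deposited small RNA counts. The members were selected on measured values: the study lists hsa-miR-101-3p among the miRNAs that were higher in Molm-14 cells after MPC1 deletion. For this reason the Molm-14 comparison of the members and the other arms of their hairpins is given as a description with no p-value. hsa-miR-101-3p also gets none between the cell lines. Other miRNAs named below keep their p-values in Molm-14 unless stated.

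RNA was taken from 2 human acute myeloid leukemia (AML) lines, Molm-14 and MV4-11, each of them positive for the FLT3-ITD mutation. In each line MPC1, a subunit of the carrier that brings pyruvate into mitochondria, was deleted with a lentiviral CRISPR/Cas9 vector carrying a GFP marker and 1 guide (MPC1 KO), and the control cells received the Empty Vector (EV). Line and genotype gave 4 groups of 3 libraries, and total counts ran from 3870104 to 8683456 per library. Small RNA libraries hold neither MPC1 mRNA nor EZH2 mRNA, so neither the deletion nor the level of the target could be read here. For the deletion, the paper reports lower MPC1 transcript levels by qPCR in both lines. The labels do not say that the 3 libraries of a group were separate cultures, so p-values measure the spread between these libraries, which may be technical.

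A mature miRNA guides a silencing complex to messenger RNAs, and most of its pairing runs through the seed, bases 2 to 8 from its 5′ end. EZH2 is the enzyme of Polycomb repressive complex 2 (PRC2) that methylates histone H3 and silences genes, and EED and SUZ12 are the core partners that it needs. miR-101 and miR-26 are known in many tumors as repressors of EZH2, and EZH2 can be lost or gained in myeloid leukemia.

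The mature sequences show which members can share targets (RefSeq, GRCh38.p14, 5′ to 3′, with the seed in capitals).
hsa-miR-101-3p: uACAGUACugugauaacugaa
hsa-miR-26a-5p: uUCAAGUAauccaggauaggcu
hsa-miR-26b-5p: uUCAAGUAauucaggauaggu
The seeds of hsa-miR-26a-5p and hsa-miR-26b-5p were the same. Counted from 1 at the 5′ end, hsa-miR-26a-5p and hsa-miR-26b-5p differed over 21 compared positions by C11U and C21U. hsa-miR-101-3p had another seed. The miR-26 seed also stands in hsa-miR-1297 and hsa-miR-4465, which were not analysed here, and no other miRNA in the sequence table had the miR-101 seed.

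The members came from 5 hairpins, each in an intron of a protein-coding gene on the same strand (GRCh38). hsa-miR-101-3p matched the genome exactly at chr1:65058442-65058462, on the minus strand in MIR101-1 inside JAK1, and at chr9:4850345-4850365, on the plus strand in MIR101-2 inside RCL1. MIR101-2 also lies opposite an exon of a long noncoding RNA (ENSG00000228165). hsa-miR-26a-5p matched at chr3:37969413-37969434, on the plus strand in MIR26A1 inside CTDSPL, and at chr12:57824658-57824679, on the minus strand in MIR26A2 inside CTDSP2. hsa-miR-26b-5p had a single match, at chr2:218402657-218402677, on the plus strand in MIR26B inside CTDSP1. The hosts of the miR-26 hairpins are related phosphatase genes of the CTDSP family, whereas the hosts of the miR-101 hairpins, a cytokine receptor kinase gene and a gene for ribosomal RNA processing, are unrelated.

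The 3′ untranslated region (UTR) of EZH2 held letters complementary to both seeds. The GTACTGT match to the miR-101 seed was found at 2 places and the TACTTGA match to the miR-26 seed at 1 place in its 263 bases, searching the transcript strand only. They are shown with up to 10 bases on each side and the match in capitals, because both seeds have a match in the same messenger.
EZH2, miR-101 match 1: ggaacctcgaGTACTGTgggcaattta
EZH2, miR-101 match 2: aatttgcaaaGTACTGTaagaataatt
EZH2, miR-26 match: gaataaagaaTACTTGAacttgtc
On the minus strand of GRCh38 the matches lay at chr7:148807581-148807587, chr7:148807526-148807532 and chr7:148807390-148807396. Over the first 263 bases of the 15608 main-transcript 3′ UTRs at least that long, GTACTGT stood in 1.36% and TACTTGA in 1.95%. EED, the subunit that holds PRC2 on methylated histones, had 1 GTACTGT match in 285 bases, where 1.49% of UTRs had one, and no TACTTGA. SUZ12, the scaffold subunit, had neither in 2035 bases, where 11.5% and 15.5% of UTRs had one. A match describes letters only, and whether any of these was bound in the cells was not measured.

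In the deposited counts miR-26 was almost wholly hsa-miR-26b-5p. Reads of hsa-miR-26a-5p match several loci, and how such reads were counted is not known, so the share of hsa-miR-26a-5p is uncertain. Levels are given in CPM, counts relative to the library's total with totals scaled by the trimmed mean of M values (TMM), and since the arms are 21 or 22 bases long they are compared with no length correction. Ranks are among the 659 miRNAs that passed the filter on low counts, which all 3 members passed.

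hsa-miR-26b-5p stood at 13587.5, 13533.4 and 13857.8 CPM in the MV4-11 EV libraries and at 13305.5, 14303.4 and 13906.8 in MV4-11 MPC1 KO. In Molm-14 it stood at 14029.1, 14300.5 and 14175.7 CPM with EV and at 11823.1, 11688.5 and 12304.9 with MPC1 KO. The Molm-14 MPC1 KO libraries were the lowest of the 12, and the other 9 spanned a narrow range. Its rank by group mean ran from 14 to 17, and it rested on 52488 to 111651 counts per library.

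hsa-miR-101-3p was of middle abundance. It stood at 159.3, 159.4 and 135.5 CPM in MV4-11 EV and at 134.0, 125.6 and 113.9 CPM in MV4-11 MPC1 KO. In Molm-14 it stood at 260.2, 226.3 and 335.8 CPM in EV and at 388.8, 448.6 and 371.6 CPM in MPC1 KO. No library of one line overlapped the other line, the order of the 4 groups from lowest to highest was MV4-11 MPC1 KO, MV4-11 EV, Molm-14 EV and Molm-14 MPC1 KO, and no neighbouring groups in that order overlapped. Counts ran from 566 to 2446 per library, and its rank from 107 to 154.

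As counted, hsa-miR-26a-5p was close to the limit of detection. MV4-11 had 22, 10 and 15 counts with EV and 6, 11 and 13 with MPC1 KO. Molm-14 had 19, 14 and 28 counts with EV and 18, 27 and 25 with MPC1 KO. The lowest library, MV4-11 MPC1 KO 1, gave 1.21 CPM by total counts, with an exact (Clopper-Pearson) 95% interval of 0.443 to 2.63, and the highest, Molm-14 EV 3, gave 6.03, with an interval of 4.01 to 8.72. These intervals cover counting error only, since the reads carry no molecular identifiers as far as the sources used here say. In every library hsa-miR-26b-5p made up at least 99.95% of the summed CPM of hsa-miR-26a-5p and hsa-miR-26b-5p, as these were counted.

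**Figure D1:**
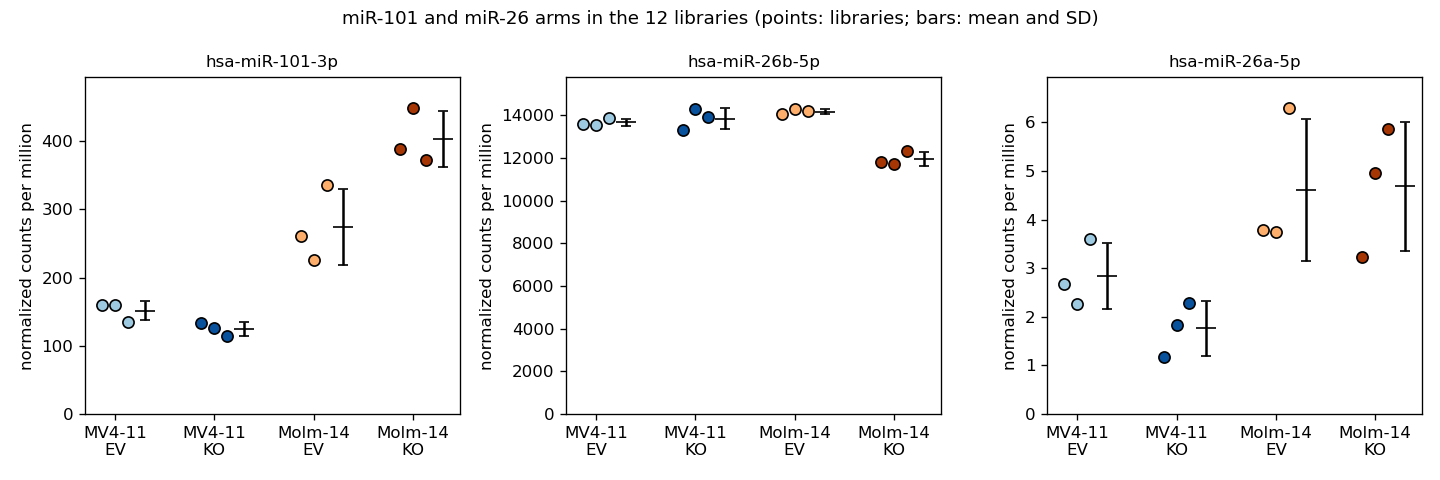
Normalized CPM (TMM, linear axes from 0) of hsa-miR-101-3p, hsa-miR-26b-5p and hsa-miR-26a-5p in the 12 libraries, by cell line and genotype, with the mean and SD of 3 libraries beside the points. hsa-miR-101-3p is highest in Molm-14 MPC1 KO (403.0 CPM on average), the group in which hsa-miR-26b-5p is lowest (11938.9 CPM), and hsa-miR-26a-5p stays under 7 CPM throughout.

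The cell lines differed at baseline in miR-101 more than in miR-26b. hsa-miR-101-3p averaged 151.4 ± 13.8 CPM (SD, n = 3) in MV4-11 EV and 274.1 ± 56.1 CPM (SD, n = 3) in Molm-14 EV, 1.81-fold higher, a log2 difference of 0.86 with a standard error (SE) of 0.13. hsa-miR-26b-5p averaged 13659.5 ± 174 CPM in MV4-11 EV and 14168.4 ± 136 CPM in Molm-14 EV. Its log2 difference of 0.05 (SE 0.09) did not pass the test (adjusted p = 0.624, edgeR's quasi-likelihood test with Benjamini-Hochberg adjustment), although the 3 Molm-14 EV libraries all lay above the 3 MV4-11 EV libraries, and the sign of its log2 difference turned with upper-quartile factors (-0.12) and total counts (-0.02). hsa-miR-26a-5p was 2.84 ± 0.678 CPM in MV4-11 EV and 4.61 ± 1.46 CPM in Molm-14 EV, a log2 difference of 0.71 (SE 0.34) that did not pass the test either (edgeR adjusted p = 0.0707).

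As a background, 408 of the 659 miRNAs tested (61.9%) passed an adjusted p of 0.05 between the EV lines, and 230 (34.9%) had every Molm-14 EV library above every MV4-11 EV library. All 3 members were of the latter kind, and neither miR-26 member passed. The libraries are bulk, so fewer cells of a type and less RNA per cell cannot be told apart.

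In MV4-11, deletion of MPC1 changed no member past the threshold. hsa-miR-101-3p averaged 124.5 ± 10.1 CPM (SD, n = 3) in MPC1 KO against 151.4 in EV, a log2 fold change of -0.28 (SE 0.13). All 3 MPC1 KO libraries lay below all 3 EV libraries, as in 47 of the 659 miRNAs (7.13%), and the adjusted p was 0.309 by edgeR's quasi-likelihood test (unadjusted p = 0.0358). hsa-miR-26b-5p averaged 13838.6 ± 502 CPM in MPC1 KO, its libraries overlapped those of EV, and its log2 fold change was 0.02 (SE 0.09, edgeR adjusted p = 0.966), a sign that turned with upper-quartile factors (-0.09). hsa-miR-26a-5p averaged 1.77 ± 0.568 CPM, with a log2 fold change of -0.65 (SE 0.38, edgeR adjusted p = 0.488) and overlapping libraries. Across all miRNAs 20 of 659 (3.03%) passed in this comparison, and 0 of the 3 members, of which 1, hsa-miR-101-3p, had an unadjusted p under 0.05. DESeq2 also called none of the members.

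In Molm-14, where hsa-miR-101-3p was picked for being higher after deletion, hsa-miR-26b-5p was lower and hsa-miR-26a-5p stayed within its spread. hsa-miR-101-3p averaged 403.0 ± 40.4 CPM (SD, n = 3) in MPC1 KO and 274.1 in EV, 1.47-fold higher, with a log2 fold change of 0.56 (SE 0.12). All its MPC1 KO libraries lay above all EV libraries, the nearest being 371.6 and 335.8 CPM. hsa-miR-26b-5p averaged 11938.9 ± 324 CPM in MPC1 KO and 14168.4 in EV, a log2 fold change of -0.25 (SE 0.09), and its MPC1 KO libraries all lay below those of EV. hsa-miR-26a-5p averaged 4.68 ± 1.33 CPM in MPC1 KO against 4.61 in EV, with overlapping libraries and a log2 fold change of 0.0021 (SE 0.32). The signs for hsa-miR-101-3p and hsa-miR-26b-5p held under the 4 scalings run. In this comparison 45 of 659 miRNAs (6.83%) passed the threshold, 81 (12.3%) had every MPC1 KO library above EV and 98 (14.9%) had every one below. This contrast chose hsa-miR-101-3p, and the members were chosen with earlier results of these data known, so nothing is read from these shares.

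**Figure D2:**
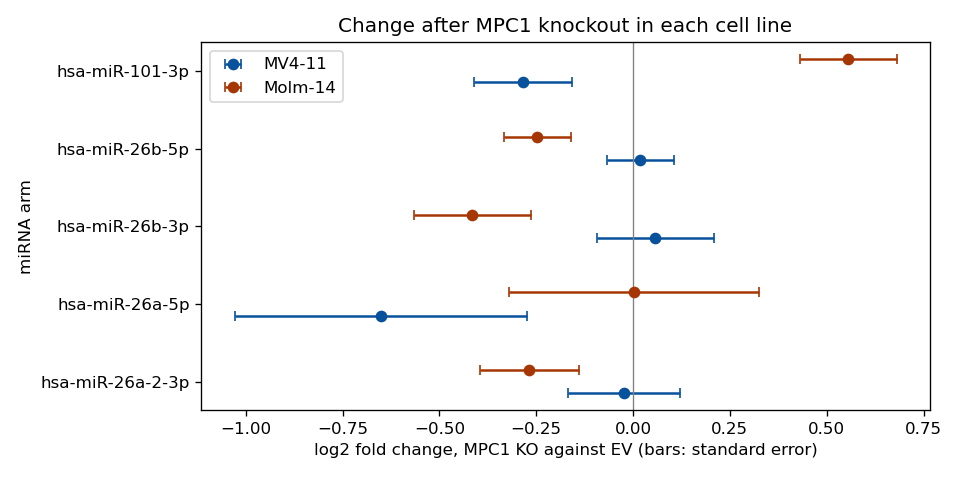
Log2 fold change of MPC1 KO against EV for the members and the tested 3p arms of MIR26B and MIR26A2 in MV4-11 (blue) and Molm-14 (orange), with bars of 1 standard error. In Molm-14 hsa-miR-101-3p stands at 0.56 while hsa-miR-26b-5p, hsa-miR-26b-3p and hsa-miR-26a-2-3p stand at -0.25, -0.42 and -0.27.

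The number of hsa-miR-26b-5p counts per hsa-miR-101-3p count, a ratio within each library that does not depend on scaling, gave the relation between the families. It was 85.3, 84.9 and 102.3 in MV4-11 EV and 99.3, 113.9 and 122.1 in MV4-11 MPC1 KO. The mean was 90.8 ± 9.93 in EV and 111.8 ± 11.6 in MPC1 KO (SD, n = 3), 1.23-fold, with overlapping libraries and an exact two-sided permutation p of 0.2, where 3 against 3 libraries cannot go below 0.1. In Molm-14 it was 53.9, 63.2 and 42.2 in EV and 30.4, 26.1 and 33.1 in MPC1 KO. All Molm-14 MPC1 KO libraries lay below those of EV, and the mean in MPC1 KO, 29.9 ± 3.56, was 0.562 of the EV mean of 53.1 ± 10.5. hsa-miR-101-3p was picked for being higher in Molm-14 MPC1 KO, so a fall of this ratio was in part built in. It is given as a description. A correlation between the families over libraries was not computed.

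**Figure D3:**
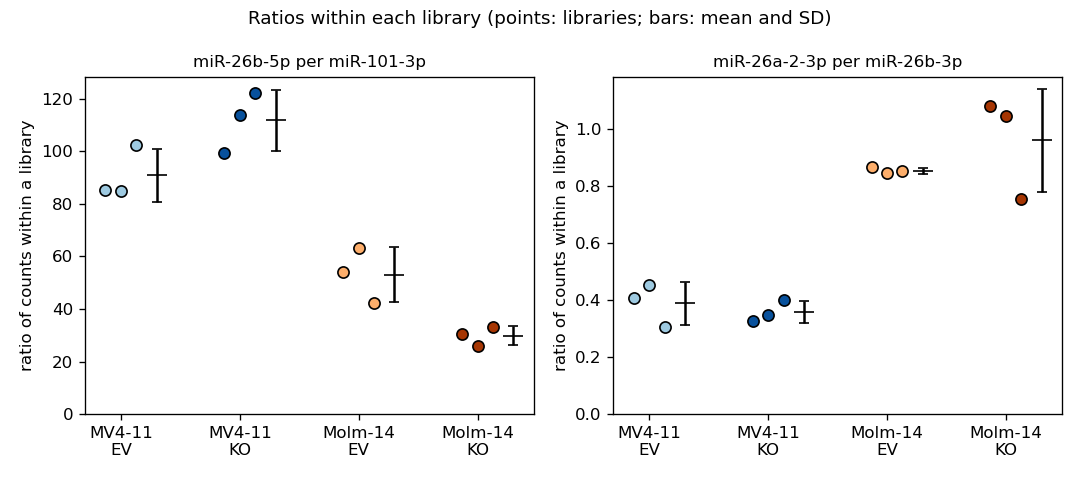
Ratios of counts within each of the 12 libraries, by cell line and genotype, with the mean and SD of 3 libraries, for hsa-miR-26b-5p per hsa-miR-101-3p (left) and hsa-miR-26a-2-3p per hsa-miR-26b-3p (right). The first ratio is lowest in Molm-14 MPC1 KO (29.9) and the second is under 0.5 in all MV4-11 libraries and above 0.7 in all Molm-14 libraries.

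**Figure D4:**
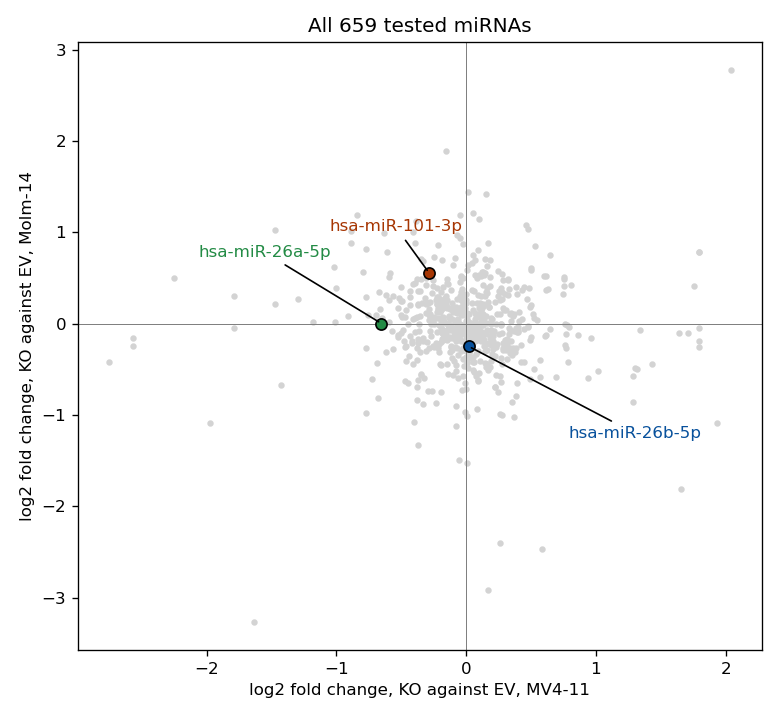
Log2 fold changes of MPC1 KO against EV in MV4-11 (horizontal) and Molm-14 (vertical) for the 659 tested miRNAs (grey), with the members in color. hsa-miR-101-3p lies at -0.28 and 0.56, and hsa-miR-26b-5p at 0.02 and -0.25.

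The opposite arms of the hairpins separate loci that the members cannot, because hsa-miR-26a-5p is the same in MIR26A1 and MIR26A2 whereas their 3p arms differ at 5 of 22 positions (G11A, C19U, A20U, C21U and G22C, counted from the 5′ end of hsa-miR-26a-1-3p).
hsa-miR-26a-1-3p: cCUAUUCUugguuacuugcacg
hsa-miR-26a-2-3p: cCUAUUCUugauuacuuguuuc
hsa-miR-26b-3p: cCUGUUCUccauuacuuggcu
Capitals again mark bases 2 to 8. These arms do not carry the miR-26 seed.

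The 3p arms of the miR-26a loci differed between the lines in opposite directions. hsa-miR-26a-1-3p, from MIR26A1, had 23, 10 and 12 counts in MV4-11 EV and 16, 19 and 5 in MV4-11 MPC1 KO. In Molm-14 it had 0 counts in all 3 EV libraries and 0, 0 and 1 in MPC1 KO. A count of 0 allows up to 3 counts per library, and against that floor the arm was at least 3.83-fold higher in MV4-11 EV than in Molm-14 EV. The arm passed the filter on low counts through the MV4-11 libraries alone, where it is high, so this difference is given as a description with no p-value. hsa-miR-26a-2-3p, from MIR26A2, went the other way. It stood at 18.6, 18.3 and 19.4 CPM in MV4-11 EV and at 55.1, 57.6 and 57.1 CPM in Molm-14 EV, 3.01-fold higher, a log2 difference of 1.59 (SE 0.14, edgeR adjusted p = 3.33e-10).

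hsa-miR-26b-3p, the less abundant arm of MIR26B, was 45.9, 40.5 and 63.4 CPM in MV4-11 EV and 63.7, 68.3 and 67.0 CPM in Molm-14 EV. Its log2 difference of 0.41 (SE 0.15) passed the test (edgeR adjusted p = 0.0211). The call was lost without MV4-11 EV library 1 (edgeR adjusted p = 0.115) or library 2 (0.151), and also with upper-quartile factors (0.202), total counts, a higher count filter, the EV libraries fitted alone and DESeq2. The ratio of hsa-miR-26a-2-3p to hsa-miR-26b-3p averaged 0.388 ± 0.0750 in MV4-11 EV and 0.854 ± 0.0108 (SD, n = 3) in Molm-14 EV, 2.20-fold higher with no overlap, at the smallest exact two-sided permutation p that 3 against 3 allows, 0.1.

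After MPC1 deletion in MV4-11 the 3p arms did not pass the test. The log2 fold changes were -0.02 (SE 0.14) for hsa-miR-26a-2-3p, 0.06 (SE 0.15) for hsa-miR-26b-3p and -0.16 (SE 0.45) for hsa-miR-26a-1-3p, with edgeR adjusted p of 0.974, 0.924 and 0.928. The signs of the first pair turned under some scalings, with hsa-miR-26a-2-3p at 0.05 under total counts and hsa-miR-26b-3p at -0.06 under upper-quartile factors.

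In Molm-14, hsa-miR-26b-3p stood at 47.1, 43.6 and 58.8 CPM in MPC1 KO, all below EV, with a log2 fold change of -0.42 (SE 0.15). hsa-miR-26a-2-3p stood at 50.9, 45.7 and 44.3 CPM in MPC1 KO, also all below EV, with a log2 fold change of -0.27 (SE 0.13). So the 5p and 3p arms of MIR26B, which share a hairpin, and the 3p arm of MIR26A2 were all lower in Molm-14 MPC1 KO. hsa-miR-26a-5p, which MIR26A2 also holds, was not (log2 fold change 0.0021). Of all 659 miRNAs tested, 98 (14.9%) had every MPC1 KO library below EV, and nothing is read from that share. The number of hsa-miR-26b-5p counts per hsa-miR-26b-3p count was 214 ± 5.84 with EV and 243 ± 30.2 with MPC1 KO in this line, and the libraries overlapped. In MV4-11 this arm ratio was 283 ± 58.8 in EV and 268 ± 21.9 in MPC1 KO (exact two-sided permutation p = 0.8).

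**Figure D5:**
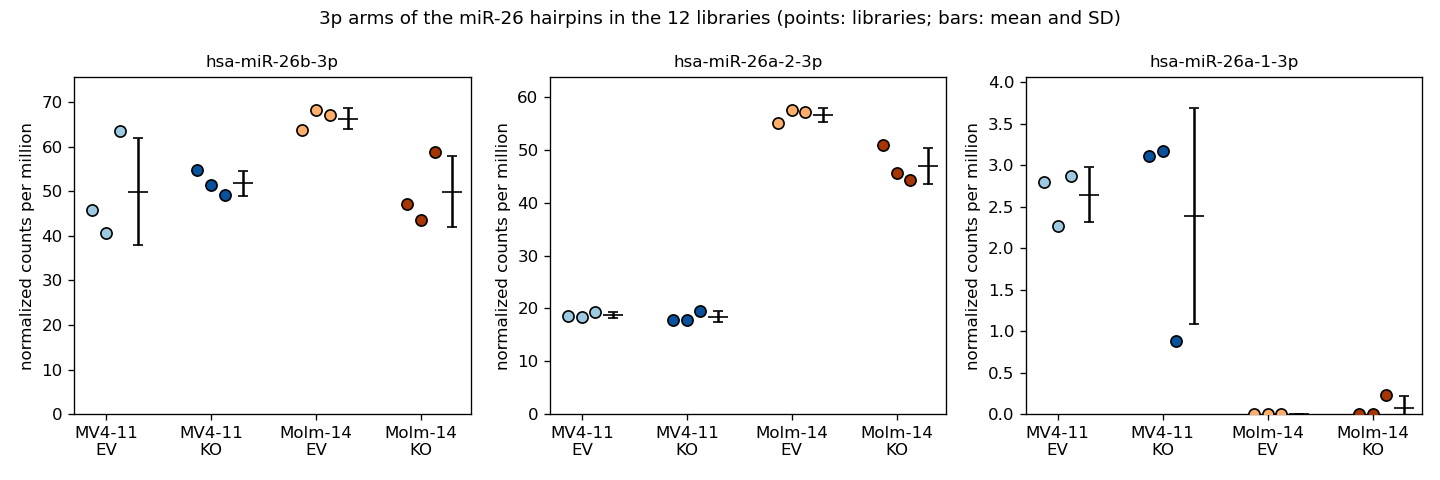
Normalized CPM (TMM, linear axes from 0) of the 3p arms of MIR26B, MIR26A2 and MIR26A1 in the 12 libraries, with the mean and SD of 3 libraries beside the points. hsa-miR-26a-2-3p is 3.01-fold higher in Molm-14 EV than in MV4-11 EV, while hsa-miR-26a-1-3p has at most 1 count in any Molm-14 library.

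The other arm of miR-101 was almost unseen. hsa-miR-101-5p, found in MIR101-1, had 3, 0 and 2 counts in EV and 5, 3 and 0 in MPC1 KO of MV4-11, against 1, 0 and 1 in EV and 3, 4 and 1 in MPC1 KO of Molm-14. It was removed by the filter on low counts and was not tested. The data therefore do not tell MIR101-1 from MIR101-2, whose shared stretch around the mature arm runs over 27 bases.

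hsa-miR-26a-5p stood below a 3p arm of its own hairpins, whereas hsa-miR-26b-5p stood far above its own. Over the 12 libraries hsa-miR-26a-5p averaged 17.3 counts and hsa-miR-26a-2-3p 174 counts, 10.1-fold more. The MIR26A1 and MIR26A2 hairpins share 24 bases, the whole of hsa-miR-26a-5p and the next 2, so a read of the 5p arm matches both loci. How reads with several matching loci were counted is not given in the sources used here, and its part in the level of hsa-miR-26a-5p was not tested.

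Other miRNAs made from several hairpins are given for comparison and were named after their values were seen. There were 16 such arms with a single-locus opposite arm and a mean of at least 10 counts in one of the arms. Of these 8 had fewer counts than the opposite arm and 6 at least 10-fold fewer, among them hsa-miR-16-5p (110.0 counts against 11239.7 for hsa-miR-16-2-3p) and hsa-miR-24-3p (13.1 against 3194 for hsa-miR-24-2-5p). Others stood above the opposite arm, such as hsa-miR-92a-3p (23528 against 2211 for hsa-miR-92a-1-5p) and hsa-miR-101-3p itself (1209 against 1.92 for hsa-miR-101-5p). Unequal arms were also common among the 178 single-locus hairpins with both arms counted, where the median log2 ratio of the higher to the lower arm was 3.46. With the counting of such reads not known, the levels of hsa-miR-26a-5p and hsa-miR-101-3p are uncertain, whereas hsa-miR-26b-5p had a single exact match in the genome.

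A list of 20 further miRNAs known to target EZH2, SUZ12 or BMI1, a Polycomb protein outside PRC2, was read beside the members. About as many of its miRNAs belong to the let-7 family, which includes miR-98, as to other families. Of the list 19 were in the counts and 16 were tested. In MV4-11, 1 rose and 0 fell (6.25% against 3.03% of all miRNAs). In Molm-14, 1 rose and 2 fell (18.75% against 6.83%). Between the EV lines 8 were higher in Molm-14 and 4 lower (75% against 61.9%). The counts for Molm-14 and for the EV lines include miRNAs that passed the filter only through libraries where they are high, as given below. The list was also chosen with earlier results of these data known. Nothing is therefore read from these shares, from the medians that follow or from the p-values of listed miRNAs given below. The median log2 fold change of the tested list was 0.04 in MV4-11, -0.04 in Molm-14 and 0.24 between the EV lines, beside -0.0035, -0.01 and 0.06 for all miRNAs.

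let-7e-5p, of the let-7 family that represses growth genes such as RAS and MYC, moved in opposite directions in the lines. In MV4-11 it rose from 88.5 ± 2.62 to 239 ± 22.4 CPM (log2 fold change 1.43, SE 0.11, edgeR adjusted p = 5.56e-10), and in Molm-14 it fell from 315 ± 30.3 to 232 ± 10.2 CPM (log2 fold change -0.44, SE 0.10, edgeR adjusted p = 0.00550). Members of the let-7 family differ by few bases, so reads can be split between them. hsa-miR-138-5p, the other listed miRNA counted as lower in Molm-14 MPC1 KO, stood at 6.60 ± 0.95 CPM in EV and 0.677 ± 0.293 CPM in MPC1 KO (log2 fold change -3.27, SE 0.48). It passed the filter on low counts through Molm-14 EV alone, the group where it is high, so a difference from that group was built into its being tested and its p-value is not given. hsa-miR-217 rose in Molm-14 from 10.3 ± 0.939 to 18.1 ± 1.43 CPM (log2 fold change 0.82, SE 0.22, edgeR adjusted p = 0.0176). hsa-miR-144-3p shares bases 2 to 7 with hsa-miR-101-3p but not base 8, and its log2 fold changes of -0.23 (SE 0.47) in MV4-11 and 0.21 (SE 0.59) in Molm-14 did not pass.

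Between the EV lines, the listed miRNAs that were higher in Molm-14 were hsa-let-7a-5p, hsa-let-7b-5p, hsa-let-7c-5p, hsa-let-7e-5p, hsa-let-7i-5p, hsa-miR-25-3p, hsa-miR-138-5p and hsa-miR-217. Of these, hsa-miR-138-5p and hsa-miR-217 had passed the filter on low counts through Molm-14 libraries alone, so their calls between the lines rest on that filter. Those lower were hsa-miR-30d-5p, hsa-miR-98-5p, hsa-miR-200b-3p and hsa-miR-200c-3p. hsa-let-7c-5p, for example, stood at 57.1 ± 3.21 CPM in MV4-11 EV and 1241 ± 96.0 CPM in Molm-14 EV, a log2 difference of 4.45 (SE 0.11, edgeR adjusted p = 4.52e-21). hsa-let-7a-5p and hsa-miR-138-5p lie in several hairpins, so their levels are uncertain in the same way as that of hsa-miR-26a-5p.

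The miRNAs whose log2 CPM over the 12 libraries was most like that of each member are given with Pearson's r as a description, since the libraries fall into 4 groups. For hsa-miR-101-3p these were hsa-miR-19b-3p (0.967), hsa-miR-216a-3p (0.966) and hsa-miR-19a-3p (0.964), of which hsa-miR-19a-3p averaged 1438 CPM in MPC1 KO and 1726 in EV of MV4-11, and 2376 in EV and 3007 in MPC1 KO of Molm-14. This is the same order of groups as for hsa-miR-101-3p. hsa-miR-216a-3p averaged 0 CPM in EV and 0.056 in MPC1 KO of MV4-11, against 3.06 and 5.37 in Molm-14. It was almost absent from MV4-11 and passed the filter on low counts through Molm-14 libraries alone. Its r therefore includes a step between the lines from a level near 0. For hsa-miR-26b-5p they were hsa-let-7d-3p (0.921), hsa-miR-196a-5p (0.879) and hsa-miR-1246 (0.874), and hsa-let-7d-3p averaged 1216 CPM in EV and 1199 in MPC1 KO of MV4-11, and 1176 in EV and 850.4 in MPC1 KO of Molm-14. For hsa-miR-26a-5p they were hsa-miR-199a-3p (0.913), hsa-miR-616-3p (0.873) and hsa-miR-33a-3p (0.862), each under 15 CPM in every group mean. Among the miRNAs named, hsa-miR-19b-3p and hsa-miR-196a-5p also lie in several hairpins, so their levels are uncertain too.

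The lines were checked against blood cell miRNAs. Of the 6 listed, hsa-miR-142-3p, hsa-miR-142-5p, hsa-miR-223-3p and hsa-miR-155-5p had at least 10219 counts in each library. hsa-miR-150-5p had 6 to 18 and hsa-miR-181a-5p 0 to 8. hsa-miR-181a-5p lies in several hairpins and averaged 2.83 counts, against 4866 for its opposite arm hsa-miR-181a-3p. Its low count therefore does not show that miR-181a is absent. The summed level of the 6 in MV4-11 was 66198 to 79231 CPM with EV and 68128 to 70803 with MPC1 KO. In Molm-14 it was 81517 to 87670 CPM with EV and 97606 to 105993 with MPC1 KO. The 7 miRNAs of liver, brain, epithelium, smooth muscle and red cells summed to 859 to 929, 776 to 823, 306 to 320 and 235 to 250 CPM in the same groups, mostly hsa-miR-143-3p and hsa-miR-200c-3p, while hsa-miR-205-5p had at most 2 counts. Both sums moved between the Molm-14 groups in which hsa-miR-101-3p and hsa-miR-26b-5p differed, and their part in those differences was not tested.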

How the data were processed

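Total RNA was isolated with a Qiagen miRNeasy kit and libraries were made with the NEBNext small RNA set. The authors deposited raw read counts per mature miRNA for all 12 libraries. Their processing notes name STAR 2.5.2, featureCounts 1.5.1 and GRCh38. The paper names later versions, and the annotation, trimming and multi-mapping settings for small RNA are not given in the sources used here. Counts were tested with edgeR 4.0.16 (TMM, filterByExpr with a minimum count of 10, quasi-likelihood F test on 4 group means, Benjamini-Hochberg over 659 miRNAs, threshold 0.05), with DESeq2 1.42.0, other scalings, filters, a replicate block and each library left out as alternatives. In simulated MV4-11 data with 200 of 659 miRNAs changed, 73% of log2 changes of 1 and 39% of 0.5 were recovered, and 5.08% of calls were unchanged miRNAs. In the real MV4-11 comparison only 3.03% of miRNAs were called. With fewer changed miRNAs the adjusted threshold is stricter, so these rates can overstate recovery there. Replicates differed by more than sampling noise (chi-square per degree of freedom of 11.4 or more). Ratios were tested with exact permutations. Seed matches were searched in main (MANE Select) GENCODE transcripts. The members and lists were chosen with earlier results of these data known. Named were the members, the other arms of their hairpins, miRNAs with a member's seed, listed miRNAs past the threshold, and the 3 most alike miRNAs per member (log2 CPM, prior count 2). Outside these rules, hsa-miR-144-3p was named for its partly shared seed. Examples of arms from several hairpins, with their opposite arms, and the cell type markers were named as well.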

Additional observations from a re-analysis of the deposited data

Results flagged for a closer look

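For hsa-miR-101-3p, every MPC1 KO library lay above every EV library in Molm-14 and below in MV4-11, and the log2 fold change in Molm-14 minus that in MV4-11 was 0.84 (SE 0.18). The difference was not tested, because the Molm-14 contrast chose this miRNA, and the change in MV4-11 did not pass the threshold, so these values are a description and do not show that the lines differ.

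On the EZH2 list, the effect for let-7e-5p differed between the lines by a test of the difference itself. The log2 difference was -1.88 (SE 0.15, edgeR's quasi-likelihood test, Benjamini-Hochberg adjusted p = 1.84e-09). The effect also differed for let-7b-5p, with a log2 difference of -0.48 (SE 0.13, edgeR adjusted p = 0.0239), although let-7b-5p passed the test in neither line alone. Both come from a list chosen with earlier results of these data known, so these p-values are given as a description.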

How the results depend on the processing

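For hsa-miR-101-3p the direction held under all alternatives in the 3 comparisons, and in MV4-11 the log2 fold change ran from -0.39 to -0.21 and the edgeR or DESeq2 adjusted p from 0.104 to 0.543. The log2 fold change of hsa-miR-26b-5p in MV4-11 was -0.092 with upper-quartile factors, -0.014 with each comparison fitted alone and -0.019 to 0.088 with 1 library left out. In Molm-14 it was -0.17 with upper-quartile factors and -0.26 to -0.21 with 1 library left out. Between the EV lines it was -0.12 with upper-quartile factors, -0.016 with total counts, -0.039 with a mean of at least 100 counts, and -0.00036 to 0.10 with 1 library left out. Upper-quartile factors moved the median log2 fold change of all miRNAs by -0.11 in MV4-11, 0.07 in Molm-14 and -0.18 between the EV lines, and relative to that median hsa-miR-26b-5p stood at 0.02, -0.23 and -0.0028. hsa-miR-26a-5p changed sign in Molm-14, from -0.16 to 0.30 with 1 library left out, and between the EV lines it was 0.46 without Molm-14 EV library 3. In MV4-11, hsa-miR-26a-2-3p was 0.052 with total counts and -0.086 to 0.043 with 1 library left out, hsa-miR-26b-3p was -0.057 with upper-quartile factors and -0.074 to 0.25, and hsa-miR-26a-1-3p -0.45 to 0.22, positive without MV4-11 MPC1 KO library 3.

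The count of all miRNAs past the threshold in MV4-11 was 31 with DESeq2 and 12 to 38 with 1 library left out, 12 without MV4-11 MPC1 KO library 1, 38 without Molm-14 EV library 2 and 34 without Molm-14 EV library 3. The EZH2 list had 2 calls there with total counts, with a mean of at least 100 counts and with DESeq2, and 1 to 3 with 1 library left out, 3 without Molm-14 EV library 2 or 3 and 2 without Molm-14 MPC1 KO library 1. In Molm-14 it had 1 with a mean of at least 100 counts and 1 to 3 with 1 library left out, 1 without Molm-14 MPC1 KO library 1. Between the EV lines 212 miRNAs passed with a mean of at least 100 counts, where fewer miRNAs are tested. Other causes were not tested. hsa-miR-26a-5p is removed by that filter, so it has no value there.

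Libraries with the same number share only a number: their deviations from the group means correlated from -0.13 to 0.12 in the 2 lines. With the replicate block, hsa-miR-101-3p in MV4-11 was -0.28 (edgeR adjusted p = 0.350) and 22 miRNAs passed there. With 6 to 28 counts, changes of hsa-miR-26a-5p were not detectable below its counting error.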
